A study of Homo sapiens with 8 samples.

Results

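The cytosolic ribosomal protein genes encode the proteins of the large and small subunits of the cytoplasmic ribosome. Members were taken by symbol: RPL or RPS followed by a number, with an optional letter, and the stalk proteins RPLP0, RPLP1 and RPLP2. S6 kinases, pseudogenes and paralogs with an L suffix were left out. This gave 76 genes, 46 of the large and 30 of the small subunit, among 11208 named genes kept on the array. The 76 genes were covered by 175 of the array's 41000 probes, and all 175 passed the filter on detection and on dye consistency. RPSA also fits the rule, but none of the array's accessions matched it and it was not analysed here.

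L1236 is a cell line from Hodgkin lymphoma with high endogenous miR-155. The cells carried the retroviral vector pMSCV-PIG, either empty (EV) or expressing a sponge RNA in which binding sites for miR-155 are repeated, and both populations were sorted for the vector's GFP. Total RNA (T) and RNA precipitated with an antibody against Ago2 (IP) were prepared from each, so that the groups were EV T, EV IP, sponge T and sponge IP, with 1 RNA sample per group. Each RNA was labelled with Cy3 and with Cy5 on 4 two-colour arrays. There was no second culture or precipitation, so no difference below was tested and none has a replicate check. Values are log2 ratios of quantile-normalised signals, with ± for the SD over the 2 dye orientations of IP/T or over the 2 dyes of a change, which covers labelling and hybridisation only. Each gene is given at its brightest kept probe.

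The ribosome joins amino acids into protein, and its proteins hold the ribosomal RNA in shape and take part in the binding of tRNA, mRNA and factors. The mRNAs of ribosomal proteins are among the most abundant and most translated of a growing cell. Most begin with a C followed by a run of pyrimidines, the 5′ terminal oligopyrimidine (TOP) tract, through which the mTOR pathway controls their translation together. Ago2 carries microRNAs, and transcripts that stay with it during precipitation are read as candidates for microRNA binding, with the IP/T ratio as the measure.

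The microRNA that the sponge binds is shown first, with its seed (bases 2 to 8) in capitals. The annotated first bases of 6 members follow, since the tract is the sequence that members share. They are the 3 genes with the highest and the 3 with the lowest IP/T in EV cells. Each window holds 15 bases before and 15 bases from an annotated start on, and capitals mark the pyrimidine run that opens with C at the start. RPL13 has 3 annotated starts in the table, of which the 1 with a tract is shown, and the other genes have 1 each. Sequences are from RefSeq (GRCh38.p14).
hsa-miR-155-5p, chr21:25573983-25574006, + strand: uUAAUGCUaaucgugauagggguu
RPL22, chr1:6199581-6199610, - strand: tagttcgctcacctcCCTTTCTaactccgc
RPS24, chr10:78033848-78033877, + strand: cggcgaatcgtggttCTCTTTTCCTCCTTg
RPLP0, chr12:120201097-120201126, - strand: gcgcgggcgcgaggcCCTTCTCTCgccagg
RPS18, chr6:33272060-33272089, + strand: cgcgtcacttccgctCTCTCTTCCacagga
RPL12, chr9:127451392-127451421, - strand: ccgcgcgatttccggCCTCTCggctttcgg
RPL13, chr16:89560667-89560696, + strand: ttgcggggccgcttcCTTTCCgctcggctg

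Genes from both ends of the IP/T order thus have a start with such a tract. The promoter table held a start for 61 of the 76 genes. A tract, defined as C and then at least 4 further C or T on the transcribed strand from the annotated first base, was present at a start of 45 of them (73.8%). Among all 27305 genes in the table the share was 5.14%. Counted by start, 45 of the 76 annotated starts of members had the tract (59.2%), against 4.07% of all starts. It was 28 of 38 in the large and 17 of 23 in the small subunit, and 6 of 69 among the mitochondrial ribosomal protein genes (8.70%). Of the members with an IP/T of 2 or more in EV cells, 6 of 7 had the tract, and of those with 0.5 or less, 12 of the 14 with a start in the table. The median log2 IP/T in EV cells was -0.49 over the 45 genes with the tract and -0.76 over the 16 without. A start without these letters says nothing about how the mRNA is controlled.

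As a check of the cells, all 8 Hodgkin marker genes, such as TNFRSF8 (CD30) and CCL17, were kept. MS4A1 (CD20), CD3D, CD3G, LYZ and EPCAM were not well above background in any channel. Of the 5 T cell markers CD3E was well above background in 8 channels and CD2 and CD8A in 7, but their probes did not pass the dye filter. Kept were 2 of the 4 myeloid and 3 of the 4 epithelial markers. Mature miR-155 is not measured on these arrays. The share of spots well above background was lowest in sponge T labelled with Cy5 (54.1%) and at least 61.0% in the other channels. All 76 members lay in the brightest 10% of the kept probes, and no spot was saturated.

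In EV cells the ribosomal protein mRNAs were on the whole lower in IP than in T, but single members ranged from 12.4-fold higher to 3.96-fold lower. The median log2 IP/T was -0.61 ± 0.057, against -0.16 over all named genes, with 56 of the 76 genes (73.7%) and 55.9% of all named genes below 0. The median was -0.094 over the 2077 other probes in the brightest 10%. An IP/T of 0.5 or less in the same direction in both orientations was seen for 19 members (25%), against 18.7% of all named genes. An IP/T of 2 or more was seen for 7 members (9.21%), against 18.1% of all named genes. The share of depleted members thus lay near the background and that of enriched members below it. With scaling to the 75th percentile in place of quantile normalisation, the median was -0.28 and the counts were 12 lower and 9 higher. The median over all kept probes was -0.14 with that scaling. In T or in IP alone, less of a transcript per cell and fewer cells that carry it cannot be told apart in bulk RNA.

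In sponge cells the order was nearly that of EV cells. The median log2 IP/T was -0.50 ± 0.071, against -0.14 over all named genes. An IP/T of 0.5 or less was seen for 16 members, with 17.4% of all named genes as background, and of 2 or more for 7 members, with 17.7% as background. The 7 enriched members were those of EV cells. Of the depleted members, 15 were shared, which is 78.9% of the EV list and 93.8% of the sponge list. RPL8, RPS16, RPS27A and RPS29 passed in EV cells alone, with values between -1.15 and -1.05 in EV cells and between -1.0 and -0.83 in sponge cells. Across the 76 genes, which are not independent and share arrays and normalisation, log2 IP/T in EV and sponge cells correlated with r = 0.991 (rho = 0.981). Over all named genes it was r = 0.981 (rho = 0.975), so the close order was not particular to the members. The overlap of calls over all named genes is not given. After normexp, loess and Aquantile normalisation the sponge median was -0.76 with 26 genes lower and 5 higher, and with scaling to the 75th percentile it was -0.36 with 14 lower and 9 higher. The median over all kept probes was then 0.0080 and -0.10, against -0.13 without these alternatives. Counts under alternatives are given throughout without the share over all named genes.

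**Figure D1:**
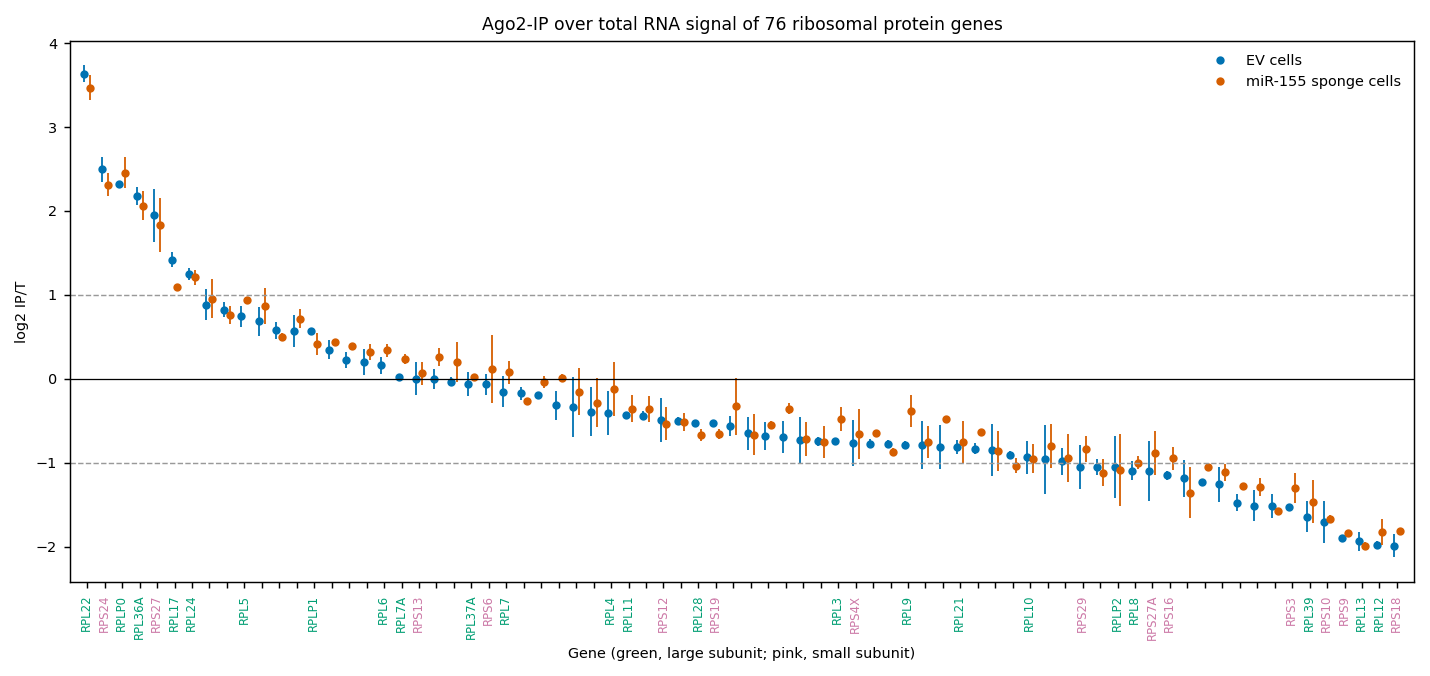
The 76 ribosomal protein genes in order of log2 IP/T in EV cells (y axis, log2 IP/T; blue, EV; orange, sponge; points, means; bars, the values of the 2 dye orientations; dashed lines, 2-fold; the genes described in the text are named on the x axis). RPL22 stands at the top with 3.64, 7 genes lie above the upper dashed line in both populations, and the orange points follow the blue ones along the whole order.

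RPL22, a large subunit protein that also binds viral and cellular RNA, had the highest IP/T of all members and rank 93 among the 11208 named genes. In EV cells its T signal was 15.46 in Cy3 and 15.76 in Cy5, and its IP signal was 19.30 and 19.19. In sponge cells T was 15.42 and 15.76, and IP was 19.08 and 19.04. All 4 IP channels thus lay over 3 log2 units above all 4 T channels. The log2 IP/T was 3.64 ± 0.14 in EV and 3.47 ± 0.21 in sponge cells. The gap to the next member was larger than the SDs of both genes.

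RPS24, a small subunit protein needed for processing of the 18S rRNA precursor, followed with 2.50 ± 0.21 in EV cells. Its T signals were 16.68 and 17.01 and its IP signals 19.36 and 19.33. In sponge cells T was 16.74 and 16.96 and IP was 19.13 and 19.19, for an IP/T of 2.31 ± 0.19. IP and T channels did not overlap in either population.

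RPLP0, the scaffold of the ribosomal stalk that recruits elongation factors, had 2.32 ± 0.03 in EV and 2.46 ± 0.26 in sponge cells. T was 17.39 and 17.57 in EV cells and 17.23 and 17.70 in sponge cells. IP was 19.87 and 19.74 in EV cells and 19.97 and 19.87 in sponge cells. The highest value on the normalised scale was 19.97, so RPLP0 reached the top of the scale in IP. Its stalk partners differed from it. RPLP1 had 0.56 ± 0.06 in EV and 0.42 ± 0.18 in sponge cells, and RPLP2 had -1.05 ± 0.52 and -1.08 ± 0.61. The IP/T of the 3 stalk mRNAs therefore spanned more than 3 log2 units, more than the SDs, although their proteins act as one complex.

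RPL36A had 2.18 ± 0.15 in EV cells and 2.06 ± 0.25 in sponge cells. Its T signals in EV cells were 16.77 and 17.06, against 19.13 and 19.05 in IP. RPS27, a zinc finger protein of the small subunit, had 1.95 ± 0.45 and 1.84 ± 0.45. The orientations of RPS27 were 2.27 and 1.63 in EV cells. Its IP signal in Cy5 was 19.97 in both populations, which is also the top of the normalised scale. In EV cells, neighbours among RPS24, RPLP0, RPL36A and RPS27 differed by less than the larger of their SDs, and RPLP0 was above RPS24 in sponge cells. RPL17, at the exit of the peptide tunnel, had 1.42 ± 0.12 in EV and 1.09 ± 0.01 in sponge cells. RPL24, the last of the 7 and named to complete them, had 1.25 ± 0.10 and 1.21 ± 0.13.

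At the other end, RPS18, a protein of the head of the small subunit, had the lowest IP/T with -1.99 ± 0.20 in EV and -1.82 ± 0.06 in sponge cells. Its T signals were 19.25 and 19.29 in EV and 19.33 and 19.36 in sponge cells, and its IP signals were 17.16 and 17.41 and then 17.50 and 17.55. RPL12, at the base of the stalk, had -1.98 ± 0.07 and -1.83 ± 0.22, with T at 19.41 and 19.13 and IP at 17.10 and 17.48 in EV cells. RPL13 had -1.94 ± 0.16 and -1.99 ± 0.07, with T at 19.87 and 19.54 and IP at 17.72 and 17.82 in EV cells. In each of these genes the T channels lay above all IP channels. In EV cells the 3 differed by less than the SD of any of them.

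RPS9, a small subunit protein that binds early in assembly, had -1.90 ± 0.04 in EV and -1.83 ± 0.03 in sponge cells. It was the member with the lowest mean signal, 15.4. RPS10 had -1.71 ± 0.35 and -1.67 ± 0.07, and RPL39, a short protein of the tunnel wall, had -1.64 ± 0.26 and -1.46 ± 0.36. Depleted members were thus found among the bright and the dimmer probes. Over the 76 genes the mean signal and log2 IP/T in EV cells correlated with r = 0.14.

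**Figure D2:**
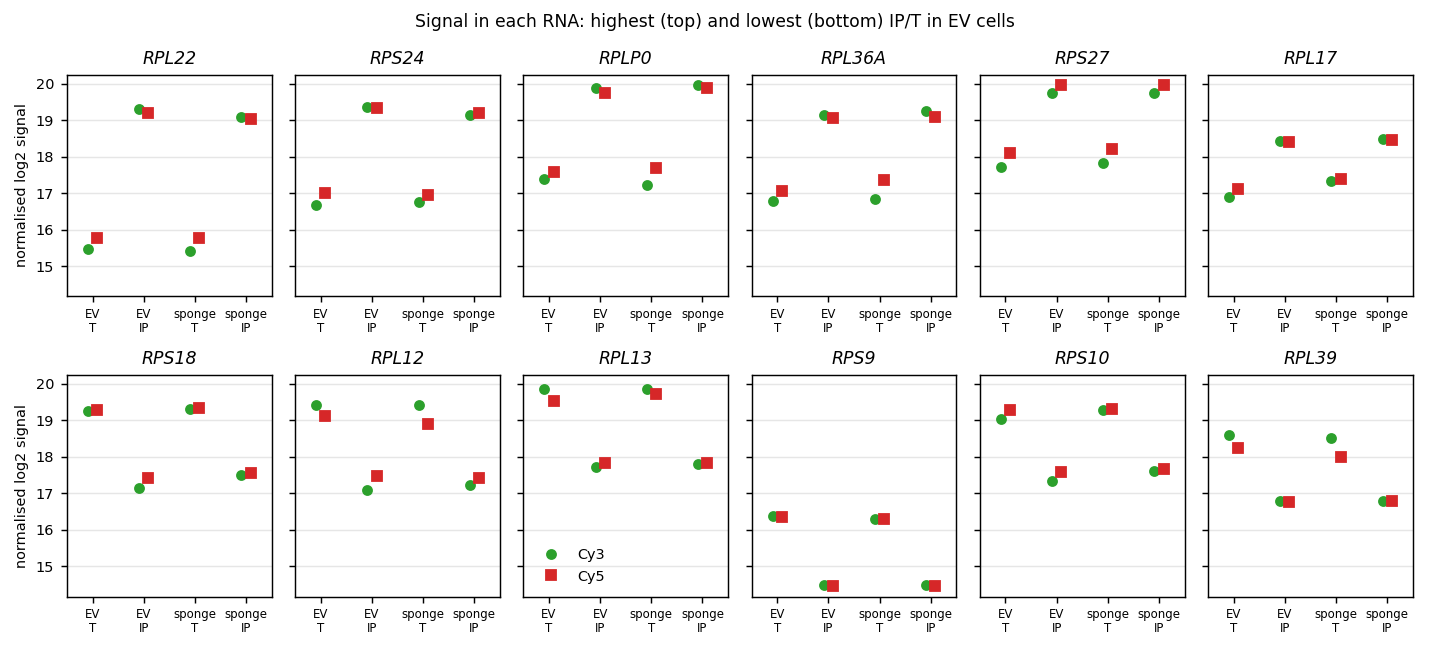
Normalised log2 signal (y axis) of the 6 genes with the highest (top row) and the 6 with the lowest (bottom row) IP/T in EV cells, in each of the 4 RNA samples (x axis), with green circles for Cy3 and red squares for Cy5. In the top row both IP samples lie above both T samples, as for RPL22 with IP at 19.04 or more and T at 15.76 or less, and in the bottom row the order is turned.

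Genes of known roles were spread over the order. RPL5 and RPL11, which with 5S rRNA form the particle that binds MDM2, had 0.74 ± 0.18 and -0.43 ± 0.01 in EV cells and 0.93 ± 0.03 and -0.36 ± 0.23 in sponge cells. RPS6, the substrate of S6 kinase, had -0.066 ± 0.17 and 0.12 ± 0.57, so its orientations did not settle a direction. RPS19, the gene most often mutated in Diamond-Blackfan anaemia, had -0.53 ± 0.07 and -0.65 ± 0.09. Over the 19 members that were listed here as Diamond-Blackfan anaemia genes, the median in EV cells was -0.34. Of these 19 members, 2 (11%) had an IP/T of 0.5 or less and 2 had an IP/T of 2 or more. Both shares were below those of all named genes. The 7 tunnel exit and tunnel wall genes had a median of -0.50 and ran from RPL39 to RPL17. RPS27A, which is made as a fusion with ubiquitin, had -1.10 ± 0.51 and -0.89 ± 0.37. RPS4X, from the X chromosome, had -0.76 ± 0.38 and -0.66 ± 0.41, and RPL10, also X-linked, -0.94 ± 0.28 and -0.95 ± 0.25.

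The medians of the subunits differed by little more than their dye error. The median log2 IP/T in EV cells was -0.51 in the 46 large subunit genes and -0.67 in the 30 small subunit genes, a difference of 0.16 ± 0.13. In sponge cells the medians were -0.43 and -0.60, with a difference of 0.17 ± 0.15. In the orientation with IP in Cy5 the difference was 0.023 in EV and 0.019 in sponge cells, and when each of the 175 probes was counted on its own it turned to -0.17 in EV and -0.034 in sponge cells. An IP/T of 0.5 or less in EV cells was seen for 10 large (21.7%) and 9 small (30%) subunit genes, against 18.7% of all named genes. An IP/T of 2 or more was seen for 5 (10.9%) and 2 (6.67%), against 18.1%. Each subunit held genes from both ends: the SD over genes was 1.14 in the large and 0.98 in the small subunit.

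Other lists of the translation machinery were compared by the same measure. The 76 mitochondrial ribosomal protein genes, whose products work in the mitochondrion, had a median of -0.61 in EV and -0.52 in sponge cells. Of these, 26 (34.2%) had an IP/T of 0.5 or less in EV cells and 5 (6.58%) of 2 or more. The 28 other TOP genes, which include translation elongation and initiation factors, had a median of -0.18 ± 0.091 in EV and 0.026 ± 0.17 in sponge cells. In EV cells 5 of them (17.9%) had an IP/T of 0.5 or less and 3 (11%) of 2 or more. FAU, which encodes a ribosomal protein fused to a ubiquitin-like protein and is named for that reason, had -1.0 ± 0.13 in EV cells. The list ran from TPT1 (-1.66 ± 0.32), which encodes the tumour protein TCTP, to HNRNPA1 (1.90 ± 0.12), a splicing factor. The 37 kept ribosome biogenesis genes had a median of -0.39, with 12 (32.4%) at 0.5 or less and 2 (5.41%) at 2 or more, from BOP1 (-1.55 ± 0.02) to SBDS (2.22 ± 0.13), which act in the maturation of the large subunit. Medians below that of all named genes were therefore also seen in the mitochondrial ribosomal protein and the biogenesis genes, and that of the other TOP genes lay near it. No difference between the lists was tested.

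**Figure D3:**
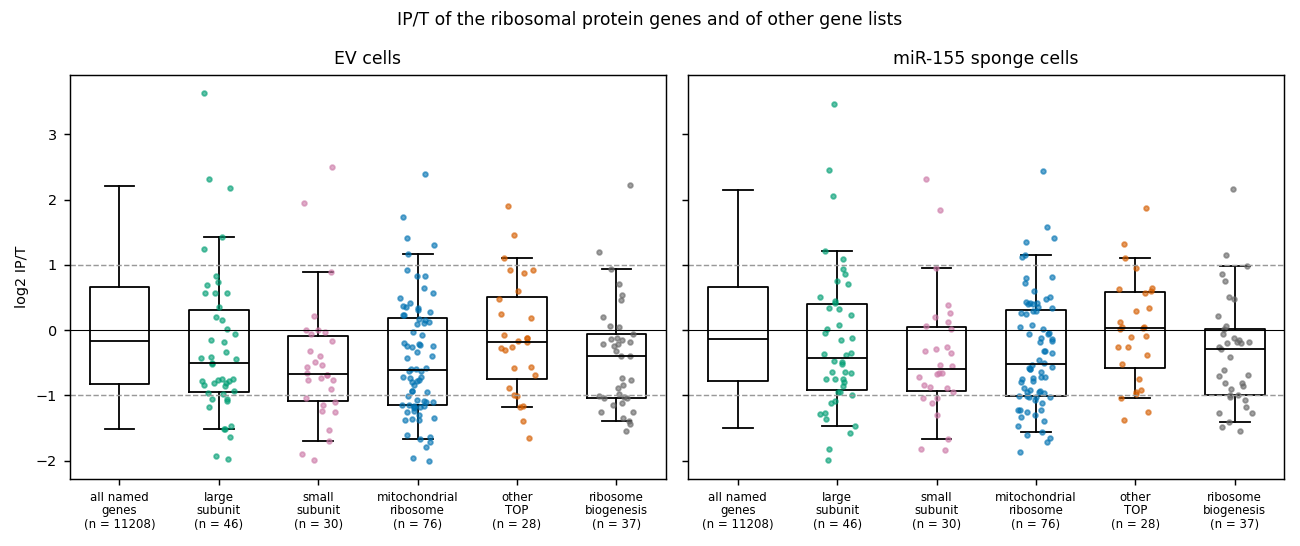
Log2 IP/T (y axis) of all named genes and of the large subunit, small subunit, mitochondrial ribosome, other TOP and ribosome biogenesis genes in EV (left) and sponge cells (right), with a point per gene in the lists. Boxes give median and quartiles, whiskers percentiles 5 and 95, and dashed lines 2-fold. The medians of the cytosolic (-0.51 and -0.67) and mitochondrial (-0.61) ribosomal protein genes in EV cells lie below that of all named genes (-0.16), and the points of each list spread over more than 2 log2 units.

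Probes of 1 gene mostly gave similar values. Of the 76 genes, 52 had several kept probes (151 probes). The median span of log2 IP/T in EV cells within a gene was 0.22, the span was under 0.5 in 39 genes, and 96.2% of the variance among these probes lay between genes. All probes had the same sign in 47 of the 52 genes. The exceptions, named for that reason, were RPL5, RPL7A, RPL28, RPL37A and RPS13. The dimmer probe of RPL5 was at -0.079, against 0.74 for the brighter one. The 3 probes of RPLP0 gave 2.32, 2.42 and 2.48, and the 3 of RPL17 gave 1.20, 1.44 and 1.42.

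A span over 1 was found in 4 genes. The probes of RPL22 gave 2.33, 3.39 and 3.64, all enriched. The 4 probes of RPL13 lay between -2.08 and -1.0 and the 10 of RPL21 between -1.82 and -0.81, all depleted. In RPL21 the dimmest probe was the most depleted and the brightest the least. In RPL7 the brighter probe was at -0.15 ± 0.27 and the dimmer at -1.16. Another RPL10 probe (A_24_P6305) was well above background in only 4 of 8 channels, and in neither channel of sponge T. Its 2.18 in sponge cells is therefore no measured ratio, and after normexp correction IP was at least 1.08-fold higher than T. The 4 bright RPL10 probes gave -1.0 to -0.91 in EV cells. Ribosomal protein genes have many processed pseudogene copies, and how far probes also bind these or paralogs was not tested.

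**Figure D4:**
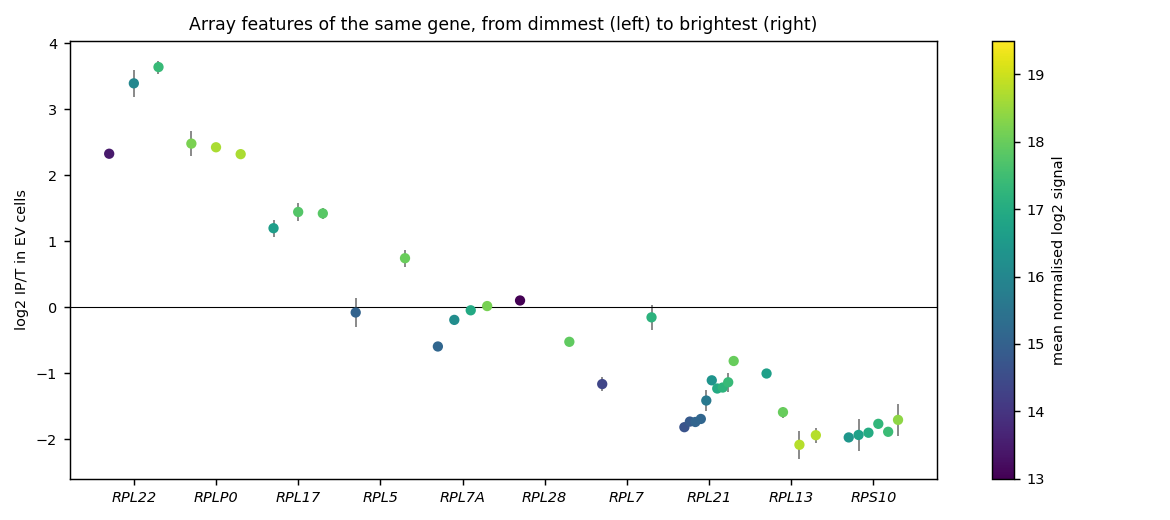
Log2 IP/T in EV cells (y axis) of the probes of 10 genes (x axis), ordered within a gene from the dimmest to the brightest and coloured by mean normalised log2 signal, with bars for the 2 dye orientations. The probes of RPLP0 and RPS10 lie together, whereas RPL22 spans 2.33 to 3.64 and RPL21 -1.82 to -0.81.

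Paralogs left out by the rule gave similar values for some pairs. RPL36AL had 1.95 ± 0.04 in EV cells, next to RPL36A at 2.18, and RPL39L had -1.90 ± 0.05, next to RPL39 at -1.64. RPL10L had -1.05 ± 0.04, next to RPL10 at -0.94, and RPL26L1 had 0.27 ± 0.26, with RPL26 at 0.58. RPS27L, which differs from RPS27 in few residues, had 0.98 ± 0.35, below RPS27 at 1.95. RPL7L1 had -0.99 ± 0.25, below the brighter probe of RPL7. RPL3L had 0.71 ± 0.70, against -0.75 ± 0.01 for RPL3. Signal shared between the copies cannot be told apart from these values.

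Between EV and sponge cells no member differed by more than 1.34-fold in T or 1.31-fold in IP. In T the changes ran from -0.30 (RPL6) to 0.43 (RPS12) and in IP the highest was 0.39 (RPS12). None of the 76 genes reached 2-fold in either direction in T, where 0.143% of all named genes were higher and 0.17% lower by that much. None did in IP, where 0.0892% were higher and 0.0625% lower. Changes under 0.25 were measured for 70 genes in T and for 73 in IP.

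The median change in T was -0.070 ± 0.054, against -0.010 over all named genes. In T, 15 members were higher in sponge cells in both dyes (background 29.3%) and 31 were lower (background 31.9%). This direction depended on the scaling: after normexp, loess and Aquantile normalisation 29 were higher and 13 lower, with a median of 0.035, and with scaling to the 75th percentile 38 were higher and 10 lower, with a median of 0.077. The median over all kept probes was then 0.014 and 0.0061. Without these alternatives the median over the members was -0.076 in Cy5 and 0 in Cy3. Sponge T in Cy5 was the channel with 54.1% of its spots well above background, and its part in this change was not tested. In Cy3, 8 members had a change of exactly 0, against 0.187% of named genes. Quantile normalisation gives equal ranks equal values, and 72 of the 76 members were among the 400 brightest probes. No direction of the members in T is therefore given.

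In IP the median change was 0.025 ± 0.036, with 33 members higher (background 37.5%) and 19 lower (background 36.4%). After normexp, loess and Aquantile normalisation 10 were higher and 43 lower, with a median of -0.078. With normalisation by quantiles of normexp values the split was 32 to 18, and with scaling to the 75th percentile it was 29 to 22. The median over all kept probes was -0.0067, 0.0010 and 0.032 in these settings, in that order. The change in IP/T of the members had a median of 0.099 ± 0.081, with 38 members higher (background 33.6%) and 13 lower (background 29.8%). It turned to -0.099 with 8 higher and 39 lower after normexp, loess and Aquantile normalisation, and to -0.024 with 22 higher and 31 lower with scaling to the 75th percentile. The median over all kept probes was then -0.024 and 0.017. The subunits differed by -0.040 ± 0.047 in T, large minus small. In IP the difference was -0.054 from the dye means, but -0.040 in Cy3 and -0.033 in Cy5 alone. Since -0.054 lies outside both dye values, no SD is given for it. Single genes are therefore described below by the dyes in which they moved.

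RPS12, a protein of the beak of the small subunit, had the largest change in both fractions. Its T signals were 17.27 in Cy3 and 17.65 in Cy5 in EV cells and 17.69 and 18.08 in sponge cells. Its IP signals were 16.89 and 17.04 in EV cells and 17.36 and 17.35 in sponge cells. Within each dye the sponge value was the higher in T and in IP, and the changes were 0.43 ± 0.01 and 0.39 ± 0.11. Its IP/T differed between the populations by less than its SDs, at -0.49 ± 0.37 and -0.53 ± 0.27.

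RPL17 was higher in T, by 0.46 in Cy3 and 0.29 in Cy5, and by 0.047 ± 0.01 in IP. Its other probes changed by 0.061 and 0.15 in T and by -0.14 and -0.10 in IP, lower in both dyes, so its probes did not share a direction in IP. RPL36A was higher in T by 0.19 ± 0.17. The lowest changes in T were those of RPL6 (-0.30 ± 0.03), RPS3 (-0.29 ± 0.04), a small subunit protein that also acts in DNA repair, and RPL4 (-0.27 ± 0.11). RPL5 changed by -0.26 ± 0.10. In IP, RPL9 (0.28 ± 0.09) was also among the highest changes, and RPL22 (-0.18 ± 0.05) and RPS24 (-0.18 ± 0.06) were among the lowest. The changes of RPL22 and RPS24 in IP had the same sign in both dyes and were small beside their IP/T.

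**Figure D5:**
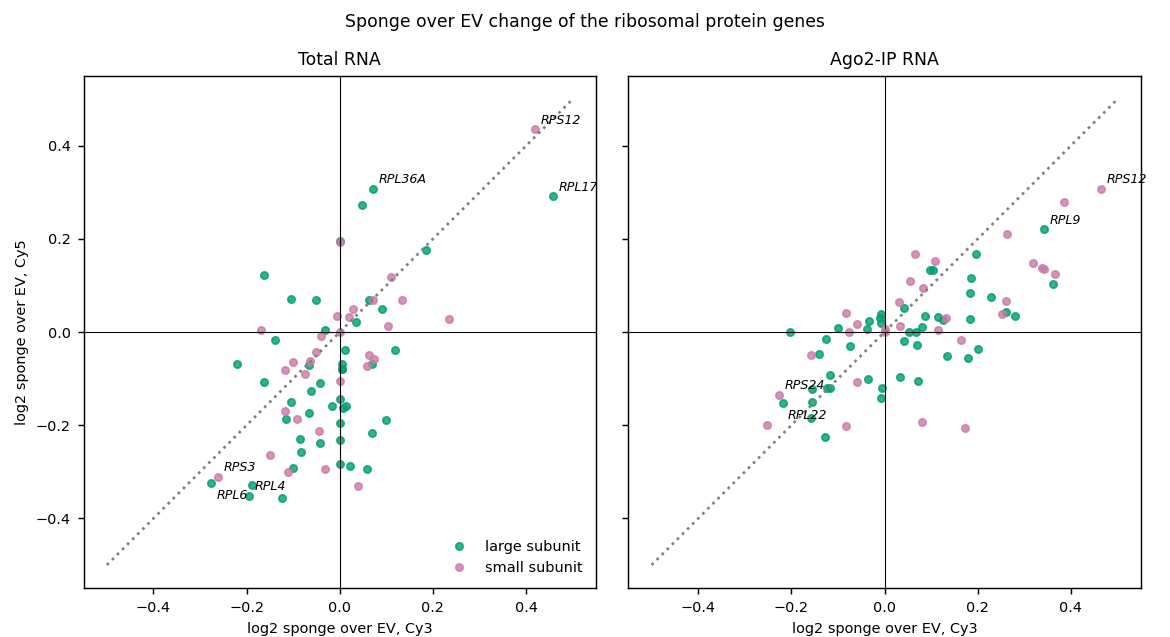
Log2 change from EV to sponge cells in T (left) and in IP (right) of the 76 genes, with the Cy3 value on the x axis and the Cy5 value on the y axis (green, large subunit; pink, small subunit; dotted line, equal values; names mark genes described in the text). All points lie within 0.5 of 0, RPS12 is at the upper right in both panels, and several points in T lie on the vertical line at 0.

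Across the 76 genes, which share arrays and normalisation, the change in T correlated between the dyes with r = 0.58 (rho = 0.47) and the change in IP with r = 0.71 (rho = 0.68). For log2 IP/T the orientations correlated with r = 0.953 in EV and r = 0.952 in sponge cells. Over all named genes r was 0.36 for the change in T and 0.58 for the change in IP. For log2 IP/T it was 0.950 in EV and 0.926 in sponge cells. The SD over members was 1.08 for IP/T in EV cells and 0.13 for the change in T, against median SDs over dyes of 0.17 and 0.08 per gene. The first SD over members was thus 6.44 times the dye error and the second 1.57 times.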

How the data were processed

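The files hold the spot intensity of 4 Agilent two-colour 44k arrays, deposited under 8 sample records, 1 per RNA and dye, and per the file headers the authors extracted them with Feature Extraction 10.7.3.1 (the labels name 10.5.1.1), which subtracts background and corrects for the dye. A deposited table of 22282 probes gives log2 values that the authors normalised, and served as an alternative. No column was without a sample. The members and gene lists were chosen with earlier results of these data known.

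The channel of each RNA's own dye was used. Control and outlier spots were left out, spots of a probe averaged, and log2 signals quantile normalised over the 8 channels of the 40940 probes with a value in all. A probe was kept if well above background in at least 4 of 8 channels and if Cy3 and Cy5 differed by at most 2-fold in each RNA (22477 kept). Accessions were named through RefSeq GRCh38.p14, which gave 11208 genes, each represented by its brightest kept probe (mean over channels). The array annotation follows another build, so no probe coordinates are given. An IP/T call asks for 2-fold with the same sign in both orientations. With 1 RNA sample per group there is no test. Named are, among members well above background in all 8 channels, the 6 highest and 6 lowest IP/T in EV cells, the 3 highest and 3 lowest changes in T and in IP of the same sign in both dyes, genes whose probes span over 2-fold, 11 genes always given (RPSA was not matched), and the ends of the other TOP and biogenesis lists. Some genes that this rule names are not reported here. The bound for a dim probe and some alternatives used limma 3.58.1 (normexp with offset 50). Signals of 8 channels on 4 arrays limit the precision. An anti-IgG precipitation was not analysed here. The steps were tested on simulated data. Analyses ran in Python 3.11.15 and R 4.3.3.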

Additional observations from a re-analysis of the deposited data

Results flagged for a closer look

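For 2 of the named genes T and IP moved in opposite directions in every channel, a difference that was not tested. RPL7 changed by -0.079 ± 0.086 in T and by 0.15 ± 0.15 in IP from EV to sponge cells, lower in both dyes of T and higher in both dyes of IP. Neither change of RPL7 was larger than its SD. RPS19 changed by 0.038 ± 0.015 in T and by -0.084 ± 0.033 in IP. The changes of both genes in T were no larger than the shift of the member median in T with the scaling, given above. With only 2 dyes per RNA no outlying sample could be looked for.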

How the results depend on the processing

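The 14 alternatives changed the normalisation, the filters, the probe taken per gene and the channels used. Of 776 values of log2 IP/T of named genes under an alternative, 13 had the other sign, in RPL4, RPL6, RPL7 and RPS6. In 12 of the 13 the reported value was within its SD of 0. The other was RPL6 in EV cells, at -0.025 after normexp, loess and Aquantile normalisation. The median log2 IP/T of the ribosomal protein genes was below 0 in both cell populations under each of the 14. The median over all kept probes moved as well. It was -0.14 in EV and -0.10 in sponge cells with scaling to the 75th percentile. After normexp, loess and Aquantile normalisation it was 0.0082 and 0.0080. A member median below 0 therefore does not by itself place the members below other genes. The median changes from EV to sponge cells and the subunit differences in IP/T and in the change in T took both signs, and the cause was not tested. The subunit difference in the change in IP was below 0 under each alternative.

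After normexp, loess and Aquantile normalisation the sponge median of IP/T was -0.76 with 26 genes at 0.5 or less, and the median changes were -0.099 in IP/T, 0.035 in T and -0.078 in IP, with a subunit difference of -0.049 in IP. With normexp and quantile normalisation the other TOP genes had a median of -0.27 in EV cells and the subunits differed by 0.012 in T. With scaling to the 75th percentile the medians of IP/T were -0.28 in EV cells, with 12 genes at 0.5 or less, and -0.36 in sponge cells, the subunits differed by 0.018 in EV IP/T and by -0.045 in IP, and the median changes were -0.024 in IP/T and 0.077 in T. In the deposited series table the subunits differed by -0.059 in IP. With the mean over the probes of a gene, the other TOP genes had a median of -0.28 in EV cells. With each of the 175 probes on its own, the EV median was -0.68, the counts were 55 and 41 probes at 0.5 or less and 16 and 16 at 2 or more in EV and sponge cells, and the subunits differed by -0.17 and -0.034 in IP/T and by -0.037 in IP. The larger counts come from counting probes in place of genes.

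Dyes stand for the replicate numbers of the labels. When channels were left out, the brightest probe of a gene was chosen anew from those that remained, which is why the changes in T with 1 dye alone differ from those per dye given above. With Cy5 or Cy3 labels alone the EV median was -0.54 or -0.68, the median change in T -0.070 or -0.0030, the subunit difference 0.32 or 0.057 in sponge IP/T and -0.033 or -0.045 in IP. With only the arrays that had IP in Cy5 or in Cy3, the EV median was -0.53 or -0.61, the sponge median -0.53 or -0.43, the subunit difference 0.023 or 0.20 in EV IP/T, 0.019 or 0.23 in sponge IP/T and -0.033 or -0.021 in IP, the median of other TOP genes in sponge cells -0.16 or 0.085, and the median change 0 or -0.076 in T and 0.0099 or 0.069 in IP. No paired analysis was possible because the replicate numbers are the 2 dyes of 1 RNA sample and no result comes from a test. The number of arrays limits the precision, and with 1 RNA sample per group the spread between cultures or precipitations is unknown.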
